A study of Mus musculus with 4 samples.

Results

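The core clock genes Arntl, Clock, Npas2, Per1, Per2, Per3, Cry1, Nr1d1, Ciart and Dbp were followed in liver nuclei of single mice. They are 10 of the 54464 genes in the count matrix and were chosen as known clock genes, with earlier results of these data in view. A further list of 14 clock genes is described near the end. Single-nucleus RNA-Seq was available for 3 WT mice and for 3 littermates that lack Nampt in hepatocytes (HNKO), each nucleus assigned to its mouse by a hashtag antibody. HNKO mice were Nampt fl/fl with 1 Alb-Cre allele (Alb-Cre+/-), and WT mice were floxed, all female and on a C57BL6/BomTac background. The albumin promoter drives Cre in hepatocytes, so that the other liver cells were not targeted. The mice were 8 to 12 weeks old when they were put on a purified control diet (PD) for 6 weeks, and none of those used here is given as having received nicotinamide riboside. On the day they were killed, the bile duct was cannulated under isoflurane. The time of day at which each mouse was killed is not given in the sources used here. After demultiplexing, 5193 nuclei remained of 4250 sorted per mouse, and 629 to 1063 of them came from each mouse.

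The circadian clock of liver cells is a feedback loop of transcription. ARNTL (also called BMAL1) pairs with CLOCK or its paralog NPAS2, binds E-boxes and activates Per, Cry, Nr1d1, Ciart and Dbp, whose products other than DBP then repress the loop: PER and CRY proteins and CIART act on the activator pair, and NR1D1 (REV-ERB alpha) represses Arntl, Npas2 and Cry1 through ROR elements. DBP is an output factor that activates genes with D-boxes, among them Per3. Over a day in mouse liver, Arntl, Npas2 and Clock RNA peak at about the opposite time to Nr1d1, Dbp, Ciart and Per3 RNA, Per1 and Per2 follow the latter, and Cry1 peaks later still. A single liver therefore gives one reading of the loop, and the question asked of these data was whether hepatocyte, endothelial and stellate nuclei of a mouse give the same reading.

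The promoter windows below are shown because they are those of the members that hold letters of an E-box, a D-box or a ROR element, the elements named above. Windows from 250 bases before to 50 after the start of transcription came from RefSeq on GRCm38.p6. They were found for 9 of the 10 genes (13 windows, some genes having several starts). The letters searched on both strands were the E-box CACGTG, the D-box TTATGTAA or TTACGTAA, and the ROR element TAGGTCA or TGGGTCA. Capitals mark the matches. The Ciart window is chr3:95882179-95882478, minus strand. The Per3 window is chr4:151044616-151044915, minus strand. For Cry1 it is chr10:85185005-85185304, minus strand, for Per1 chr11:69098699-69098998, plus strand, and for Arntl chr7:113207261-113207560, plus strand.
Ciart: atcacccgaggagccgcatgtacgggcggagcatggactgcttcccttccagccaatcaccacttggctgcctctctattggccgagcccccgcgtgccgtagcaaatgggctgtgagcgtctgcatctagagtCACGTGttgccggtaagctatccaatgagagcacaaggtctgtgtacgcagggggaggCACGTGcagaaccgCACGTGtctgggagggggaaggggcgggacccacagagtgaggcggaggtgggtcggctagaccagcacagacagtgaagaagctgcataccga
Per3: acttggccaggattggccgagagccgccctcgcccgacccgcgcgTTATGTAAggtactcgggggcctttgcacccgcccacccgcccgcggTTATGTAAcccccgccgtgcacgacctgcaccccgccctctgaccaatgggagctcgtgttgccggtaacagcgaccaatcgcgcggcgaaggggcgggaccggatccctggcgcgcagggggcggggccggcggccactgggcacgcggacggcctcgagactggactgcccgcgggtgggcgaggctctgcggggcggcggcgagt
Cry1: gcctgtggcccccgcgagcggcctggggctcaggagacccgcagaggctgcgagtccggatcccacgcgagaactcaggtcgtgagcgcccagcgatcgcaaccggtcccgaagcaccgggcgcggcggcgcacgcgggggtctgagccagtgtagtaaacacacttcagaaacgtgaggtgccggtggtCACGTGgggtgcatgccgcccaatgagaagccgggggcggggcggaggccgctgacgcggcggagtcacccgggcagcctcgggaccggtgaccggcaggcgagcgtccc
Per1: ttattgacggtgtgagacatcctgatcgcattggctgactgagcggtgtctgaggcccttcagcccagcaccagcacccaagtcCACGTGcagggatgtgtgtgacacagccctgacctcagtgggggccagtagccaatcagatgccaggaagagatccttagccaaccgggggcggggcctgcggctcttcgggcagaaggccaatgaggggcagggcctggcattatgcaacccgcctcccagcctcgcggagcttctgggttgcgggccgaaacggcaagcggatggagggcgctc
Arntl: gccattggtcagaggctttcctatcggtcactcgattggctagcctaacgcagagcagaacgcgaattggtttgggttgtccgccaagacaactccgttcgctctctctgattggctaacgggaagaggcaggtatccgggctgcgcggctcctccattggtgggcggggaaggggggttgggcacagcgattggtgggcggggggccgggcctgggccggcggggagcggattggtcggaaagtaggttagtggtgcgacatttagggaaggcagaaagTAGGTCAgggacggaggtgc

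Distances are given from the start of transcription to the first base of the motif, negative before the start. Ciart held 3 E-boxes, at -116, -58 and -44. Cry1 held 1 E-box at -60, and Per1 held 1 at -166. Per3 held 2 D-boxes, at -205 and -158, and Arntl held 1 ROR element at 30 bases after its start. The windows printed above are those with a match: 3 of the 13 held an E-box, 1 a D-box and 1 a ROR element. Of all 32851 windows, 7.15% held that E-box, 1.06% that D-box and 6.45% that ROR element. A match is a run of letters, and its absence from a window says nothing of sites elsewhere.

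Several members share their locus with another gene in the GENCODE M21 annotation of GRCm38, and the strand used in counting is not given in the sources used here. Per3 (chromosome 4, 151003652 to 151044665) lies on the same strand as, and within, Camta1. Hepatocyte Camta1 stood at 123, 211 and 200 counts per 1000000 UMIs (CPM) in WT mice 1 to 3 and at 83.5, 177 and 262 in HNKO mice 1 to 3. Ciart (chromosome 3, 95878503 to 95882251) lies within the antisense gene C920021L13Rik, which had 23.8 CPM in WT 3 and 7.85 to 14.9 in the other mice. Nr1d1 (chromosome 11, 98767932 to 98775333) overlaps the end of Thra, at 19.5 CPM in HNKO 3 and 4.27 to 7.35 in the others. Dbp overlaps Sphk2, at 10.4 to 16.7. How far these neighbours entered the counts of the members was not tested.

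Hepatocyte nuclei were the best measured. They numbered 562 to 847 per mouse with 3524497 to 6635290 unique molecular identifiers (UMIs, 1 per captured RNA molecule), whereas endothelial sums held 89294 to 317702 UMIs and stellate sums 56672 to 172994. No cell barcode occurred more than once. CPM refer to the UMI total of the same mouse and cell type. Summed hepatocyte markers reached 10469 to 28430 CPM in hepatocytes. The endothelial list reached 8368 to 12235 CPM in endothelial nuclei and 29.9 to 42.8 CPM in hepatocytes, and the stellate list 6157 to 14751 CPM in stellate nuclei and 32.6 to 195 CPM in hepatocytes. HNKO 3 stood apart from the rest. Its own hashtag held over 50% of the hashtag counts in 35.9% of its nuclei (84.8% to 99.2% in the others). These shares are mostly those of hepatocytes. In endothelial nuclei the own hashtag held over 50% in 9 of 26, 9 of 26 and 16 of 29 nuclei of WT mice 1 to 3 and in 69 of 71, 11 of 51 and 4 of 42 of HNKO mice 1 to 3. In stellate nuclei it did so in 3 of 19, 3 of 16 and 12 of 27 nuclei of WT mice and in 42 of 43, 6 of 34 and 5 of 32 of HNKO mice. Only in HNKO 1 did most nuclei have such a hashtag in both types, so the comparisons of mice between cell types below rest on the authors' assignment of the others. The hepatocyte markers of HNKO 3 made up 1.05% of hepatocyte UMIs (2.26% to 2.84% in the others). HNKO 2 stood apart as well: 1.22% of its hepatocyte nuclei lay in clusters that the authors named for HNKO, against 93.2% in HNKO 1 and 99.4% in HNKO 3, and 97.6% lay in clusters shared with WT 2.

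Nampt, the targeted gene and itself a clock output, stood in hepatocytes at 84.8, 105 and 96.9 CPM in WT mice 1 to 3 and at 84.1, 148 and 90.8 CPM in HNKO mice 1 to 3. Its log2 fold change was 0.03 ± 0.27 (SE, edgeR FDR = 0.985). Counts over the whole gene, introns included, do not report the deleted part, so that they check nothing about the genotype.

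Hepatocytes of the 6 mice differed widely in their clock genes, and no member passed the test between genotypes. The extreme values came from single mice of either group. WT 3 had the most Ciart and the least Arntl and Clock RNA. HNKO 1 had the least Dbp, Per3 and Nr1d1 and the most Arntl RNA, and HNKO 3 had the most Dbp, Per3 and Nr1d1 and the least Per1 RNA.

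Among the activators, Arntl stood at 10.9, 8.40 and 3.76 CPM in WT mice 1 to 3 and at 18.6, 10.1 and 15.8 CPM in HNKO mice 1 to 3. The groups overlapped, since WT 1 was above HNKO 2. The log2 fold change of HNKO against WT was 0.82 ± 0.41 (SE, edgeR FDR = 0.82). Clock, its partner, stood at 98.2, 95.2 and 68.0 CPM in WT and at 103, 100 and 79.7 CPM in HNKO mice. Its lowest value was again in WT 3, followed by HNKO 3. For Npas2, the paralog of Clock, WT mice had 4.82, 1.01 and 2.70 CPM and HNKO mice 7.54, 1.90 and 5.28 CPM. In both groups mouse 2 was the lowest.

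The repressors gave a different order of mice. Ciart stood at 2.84, 5.82 and 44.5 CPM in WT and at 7.99, 8.35 and 2.73 CPM in HNKO mice. WT 3 alone was high, and without it the other 5 mice lay below 8.36 CPM. The log2 fold change was -1.59 ± 0.94 (SE, edgeR FDR = 0.82) and turned to 0.46 when WT 3 was left out. Per1, which also responds to hormones and feeding, stood at 39.2, 57.2 and 69.9 CPM in WT and at 63.3, 75.5 and 19.1 CPM in HNKO mice. HNKO 3 was the lowest, and the highest and lowest mouse were both HNKO. Per2 ranged from 22.1 CPM in WT 1 to 46.3 CPM in HNKO 2, with WT 3 at 46.1 CPM.

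Per3, the member with D-boxes in its printed window, stood at 19.5, 31.7 and 28.6 CPM in WT and at 10.3, 25.1 and 37.5 CPM in HNKO mice. The lowest and the highest mouse were HNKO 1 and HNKO 3, as they were for Camta1. Cry1 stood at 8.23, 28.1 and 13.05 CPM in WT and at 9.72, 17.5 and 8.31 CPM in HNKO mice. Mouse 2 of each group was the highest, the mice in which Npas2 was lowest. Nr1d1 stood at 22.4, 24.8 and 19.8 CPM in WT and at 16.3, 23.4 and 55.1 CPM in HNKO mice. Here HNKO 3 alone was high, as it was for the overlapping Thra. Dbp, the output factor, stood at 22.1, 28.9 and 32.4 CPM in WT and at 8.29, 30.7 and 53.9 CPM in HNKO mice. The 3 WT values lay between those of HNKO 1 and HNKO 3.

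**Figure D1:**
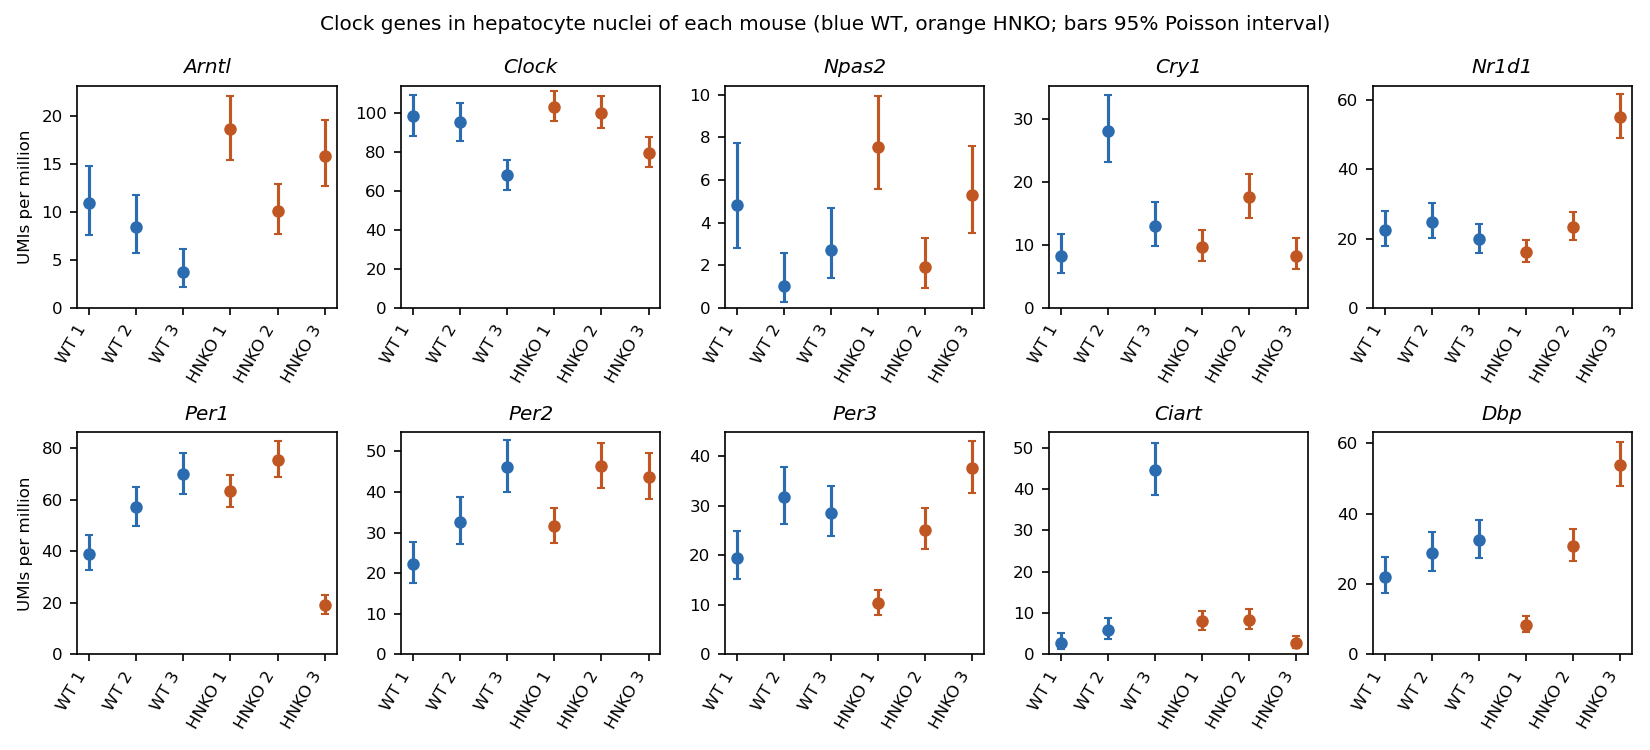
CPM of the 10 clock genes in hepatocyte nuclei of each mouse (linear axis from 0; WT blue, HNKO orange; bars are 95% Poisson intervals, which cover counting error only). Ciart is high in WT 3 alone (44.5 CPM), Nr1d1 in HNKO 3 alone (55.1 CPM), and Per1 is lowest in HNKO 3 (19.1 CPM).

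In the genotype test 0 of the 10 members passed an FDR of 0.05 and 0 had an unadjusted p under 0.05 (edgeR). Over all 11810 genes tested, edgeR called 0 (0%), 698 genes (5.91%) had an unadjusted p under 0.05, and DESeq2 called 21, none of them a member. The groups did not overlap for 0 of the 10 members and for 12.4% of all genes tested. The members' log2 fold changes ran from -1.59 for Ciart to 0.82 for Arntl with a median of -0.06, beside 0.02 over all genes. Of the Arntl side (Arntl, Clock, Npas2 and Cry1) 2 of 4 lay above 0, and of the Dbp side (Per1, Per2, Per3, Nr1d1, Ciart and Dbp) 2 of 6. The log2 fold change was 0.66 for Npas2, -0.60 for Cry1, -0.37 for Per3, 0.25 for Nr1d1, -0.15 for Per1, -0.11 for Dbp, 0.10 for Per2 and -0.01 for Clock. TMM scaling gave HNKO 3 a factor of 1.28 against 0.917 to 1.01 in the others. The sign for Clock and Dbp differed from that of their mean CPM, 87.1 ± 16.6 in WT and 94.4 ± 12.8 in HNKO mice for Clock, and 27.8 ± 5.20 and 31.0 ± 22.8 for Dbp (SD, n = 3). Leaving out HNKO 3 turned Nr1d1 to -0.20 and Per1 to 0.30, and leaving out HNKO 1 turned Dbp to 0.30. Without HNKO 2, 32 of 12047 genes were called by edgeR, again with 0 members.

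The scatter of the members between mice was large for genes of their level. On the log2 CPM scale (prior count 2), the SD over 6 mice was 1.40 for Ciart, beside a median of 0.43 over the 500 genes of nearest mean level, and 99.2% of those genes had a smaller SD. The corresponding share was 97.2% for Dbp (SD 0.88), 92.4% for Arntl (0.76), 92.2% for Per1 (0.74), 92.0% for Npas2 (0.93) and 91.8% for Per3 (0.65). Thus 6 of 10 members lay above the 90th percentile. Cry1 (89.0%), Nr1d1 (86.6%) and Per2 (70.0%) lay lower, and Clock, whose RNA is known to cycle with a small amplitude, lay at 37.8% (SD 0.24). The SD within genotype was at least as large as the SD over all 6 mice for 9 of 10 members, Arntl being the exception (0.61 against 0.76). Single mice carried much of this: without WT 3 the share for Ciart was 83.6%, without HNKO 3 that for Nr1d1 was 47.0%, and without HNKO 1 that for Per3 was 49.0% and the count above the 90th percentile 3.

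Some extremes of single mice were also seen in their separate hepatocyte clusters, and others were not. The authors made these clusters from the same nuclei, so they are no replicates. Clusters with at least 30 nuclei of a mouse were used, 3 or 4 per mouse. Ciart stood at 37.8 to 96.2 CPM in the 4 clusters of WT 3, all above the 18 clusters of the other mice (0 to 26.0 CPM). Dbp stood at 4.47 to 13.1 CPM in the 3 clusters of HNKO 1, all below the others (14.8 to 78.6 CPM). The value of 13.1 CPM rested on 2 UMIs, so that this cluster alone does not show the difference. For Nr1d1, the 3 clusters of HNKO 3 (48.3 to 85.6 CPM) were above all others, which reached 39.5 CPM. By CPM these differences were seen in every cluster of the mouse, but the smallest cluster count was 13 UMIs for Ciart, 2 for Dbp and 37 for Nr1d1. Per1 in HNKO 3 (9.25 to 22.8 CPM) lay below every other cluster (at least 31.9 CPM), and Per3 in HNKO 1 (0 to 10.6 CPM) did as well (at least 17.7 CPM). Here the smallest cluster count was 4 UMIs for Per1 and 0 for Per3. Cry1 was above all other mice in 3 of the 4 clusters of WT 2. Other extremes held in fewer clusters or in none. Arntl and Clock in WT 3 (0.696 to 12.8 and 63.1 to 72.8 CPM) lay below all others in 0 of the 4 clusters. Arntl in HNKO 1 and Dbp in HNKO 3 lay above all others in 1 of the 3, and Per3 in HNKO 3 in 0. Nr1d1 in HNKO 1 lay below all others in 2 of the 3. Such counts over all genes are not given here.

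**Figure D2:**
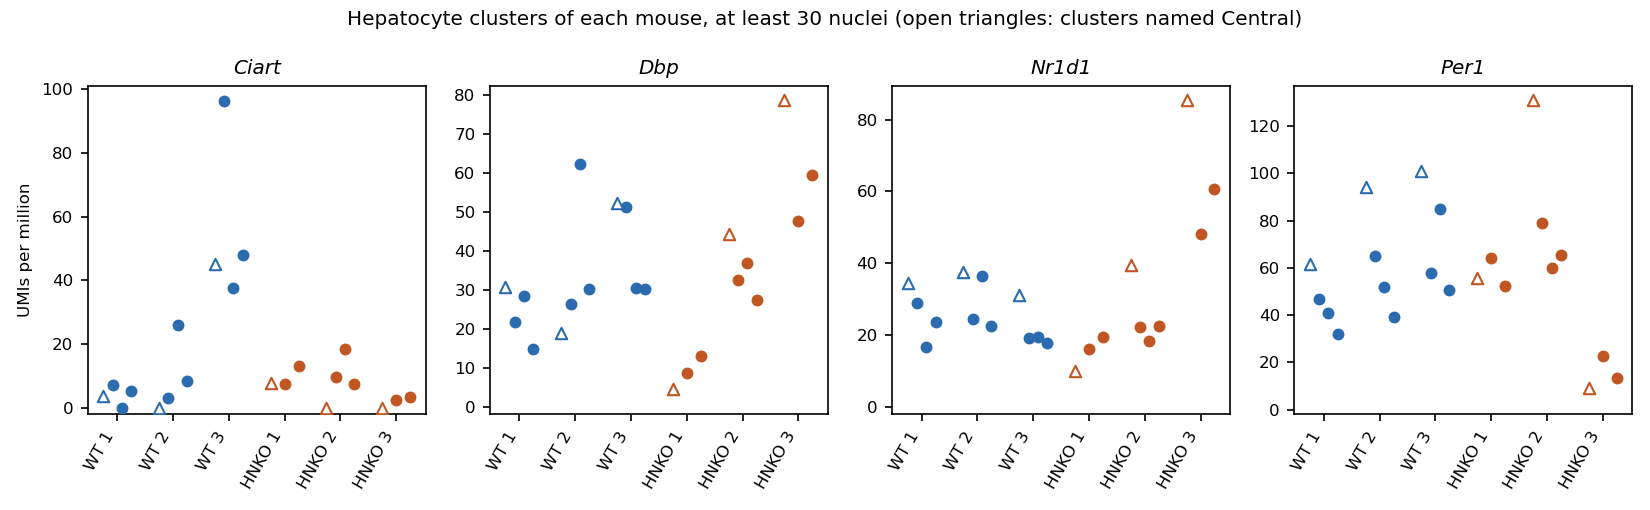
CPM of Ciart, Dbp, Nr1d1 and Per1 in each hepatocyte cluster of each mouse with at least 30 nuclei (linear axes; 1 point per cluster, open triangles are clusters named Central). The 4 WT 3 clusters lie above all others for Ciart, and the 3 HNKO 3 clusters lie above all others for Nr1d1 and below all others for Per1.

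Few nuclei held a UMI of these genes. After thinning every nucleus to 1500 UMIs (9 shallower hepatocyte nuclei left out), Ciart was found in 6.56% of WT 3 hepatocyte nuclei (43 of 655; exact binomial interval 4.79% to 8.74%) and in 0.473% to 1.26% in the other mice. Without thinning the shares were 21.5% and 1.42% to 5.91%. Nr1d1 was found in 8.05% of thinned HNKO 3 nuclei and in 2.71% to 4.49% in the other mice, and Dbp in 0.863% of HNKO 1 nuclei and in 3.75% to 7.57% in the other mice. The intervals cover counting error only.

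Some members differed between the cluster named central and the other hepatocyte clusters of a mouse. Hepatocytes near the central vein differ from those near the portal tract in many metabolic genes, and the authors' table names 1 cluster per mouse as central. In that cluster Arntl and Cry1 were below the pooled other hepatocyte clusters in 6 of 6 mice, on 0 to 10 UMIs for Arntl and 0 to 5 for Cry1. They were below every other cluster in 3 of 6 mice for Arntl and in 4 of 6 for Cry1. Per3 was above the pooled others in 6 of 6 mice, on 6 to 19 UMIs, but above every other cluster in 1 of 6. Nr1d1 was above every other cluster of the same mouse in 5 of 6, on 6 to 37 UMIs. The margin ran from 37.6 against at most 36.4 CPM in WT 2 to 85.6 against 48.3 to 60.8 CPM in HNKO 3. HNKO 1 was lower (10.1 against 16.2 to 19.7 CPM). Per1 was above every other cluster in the 3 WT mice and in HNKO 2, on 15 to 53 UMIs, as in WT 3 with 101 against 50.6 to 84.9 CPM. It was below every other in HNKO 3, on 4 UMIs. The clusters were cut from the same counts, so these values are a description. The same counts of mice over all genes are not given here. This comparison was added after the data had been seen.

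Pairs of members were set against each other over the 6 hepatocyte sums, also after the data had been seen. Of 45 pairs, 0 passed an adjusted p of 0.05 (exact permutation test, two-sided, Benjamini-Hochberg) and 2 had an unadjusted p under 0.05. Dbp and Per3 gave r = 0.97 (rho = 0.83, exact permutation p = 0.00556 for r and 0.0583 for rho, adjusted p = 0.188 and 0.656). Without HNKO 1 and HNKO 3, r was 0.79, and centred within genotype it was 0.98. Npas2 and Cry1 gave r = -0.94 (rho = -0.77, exact permutation p = 0.00833 and 0.103, adjusted p = 0.188 and 0.661), -0.99 without WT 2 and HNKO 1, and -0.94 centred within genotype. Of the 21 pairs within a side 13 had r above 0, and of the 24 pairs across sides 16 had r below 0.

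Endothelial and stellate nuclei held more Clock and Arntl RNA per UMI than hepatocytes in most mice, and the mean of each repressor was lower. Endothelial Arntl stood at 78.4, 66.0 and 27.7 CPM in WT mice 1 to 3 and at 22.03, 10.8 and 44.8 CPM in HNKO mice 1 to 3, on 2 to 7 UMIs per mouse. It was above the hepatocytes of the same mouse in 6 of 6 mice, and in 4 of 6 with the hepatocyte RNA share subtracted, and the mean was 3.70 times the hepatocyte mean. Endothelial Clock stood at 213, 201 and 180 CPM in WT and at 183, 190 and 128 CPM in HNKO mice. That was 2.01 times hepatocytes and higher in 6 of 6 mice. In stellate nuclei Clock stood at 161, 238 and 150 CPM in WT and at 153, 143 and 162 CPM in HNKO mice, 1.85 times hepatocytes and higher in 6 of 6. Clock was thus above hepatocytes in every mouse in both types.

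Stellate Npas2 had a mean of 21.2 CPM on 17 UMIs in all, 5.48 times hepatocytes and higher in 5 of 6 mice, whereas endothelial nuclei held 4 Npas2 UMIs (3.98 CPM). Stellate Arntl was 1.97 times hepatocytes and higher in 5 of 6 mice, on 17 UMIs. In the other types, mice with at least 10 nuclei were used. In CD45+ nuclei the Arntl mean was 4.17 times the hepatocyte mean, on 33 UMIs, and Arntl was higher in 5 of 5 mice. The difference was smaller in WT 1, with 20.3 against 10.9 CPM on 1 UMI. In Kupffer nuclei the ratio of means was 6.45 on 22 UMIs, and Arntl was higher in 3 of 3 mice, all HNKO. In cholangiocytes, also of HNKO mice alone, the ratio was 1.30 on 11 UMIs, and Arntl was higher in 2 of 3. Without subtraction, Arntl was therefore above hepatocytes in most mice of each of these types. With the hepatocyte RNA share subtracted, it was so in 5 of 6 mice for stellate, 5 of 5 for CD45+ and 3 of 3 for Kupffer nuclei. For cholangiocytes it was so in 1 of 3 only.

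Ciart had 349 hepatocyte UMIs, 198 of them in WT 3, beside 1 endothelial UMI and 2 stellate UMIs in the far smaller sums of those types. In CD45+ and cholangiocyte nuclei of HNKO 3 it stood at 6.12 and 5.63 CPM, on 1 and 2 UMIs, against 2.73 CPM in hepatocytes. These counts do not tell whether Ciart RNA is confined to hepatocytes. Its endothelial mean was 1.54 CPM, below the 2.62 CPM that the hepatocyte RNA in those nuclei would give. Dbp had 13 endothelial and 7 stellate UMIs, 0.460 and 0.388 times hepatocytes. Per2 was 0.741 times hepatocytes in endothelial and 0.330 times in stellate nuclei. For Per1 the ratios were 0.816 and 0.877, for Nr1d1 0.669 and 0.434, for Per3 0.513 and 0.637, and for Cry1 0.524 and 0.406. These are ratios of means over mice, and single mice departed from them. Endothelial nuclei were above the hepatocytes of the same mouse in 2 of 6 mice for Per1 and Per2, in 1 of 6 for Nr1d1, Dbp and Cry1 and in 0 of 6 for Per3 and Ciart. For endothelial Per1 the 2 were WT 2 (77.0 against 57.2 CPM) and WT 3 (83.1 against 69.9 CPM), and its WT mean was 64.6 CPM against 55.4 CPM in hepatocytes, beside 23.6 against 52.6 CPM in HNKO mice. Stellate nuclei were above in 2 of 6 mice for Nr1d1, in 1 of 6 for Per1 and Per3 and in 0 of 6 for Per2, Ciart, Dbp and Cry1. Hepatocyte markers stood in endothelial nuclei at 16.4% to 39.6% of their hepatocyte level, and in stellate nuclei at 5.29% to 34.5%, highest in HNKO 3 in both. These ratios are relative to hepatocytes of the same mouse, in which HNKO 3 had few marker UMIs (1.05%). In percent of the type's own UMIs, the markers were lowest in HNKO 3 in endothelial nuclei (0.414%). In stellate nuclei they were 0.362% in HNKO 3, below HNKO 1 (0.441%). The part of hepatocyte RNA in the low values of the repressors was not tested. Between cell types, fewer UMIs of a gene and more UMIs of the others cannot be told apart, and the types were cut from the same counts, so no test is given.

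**Figure D3:**
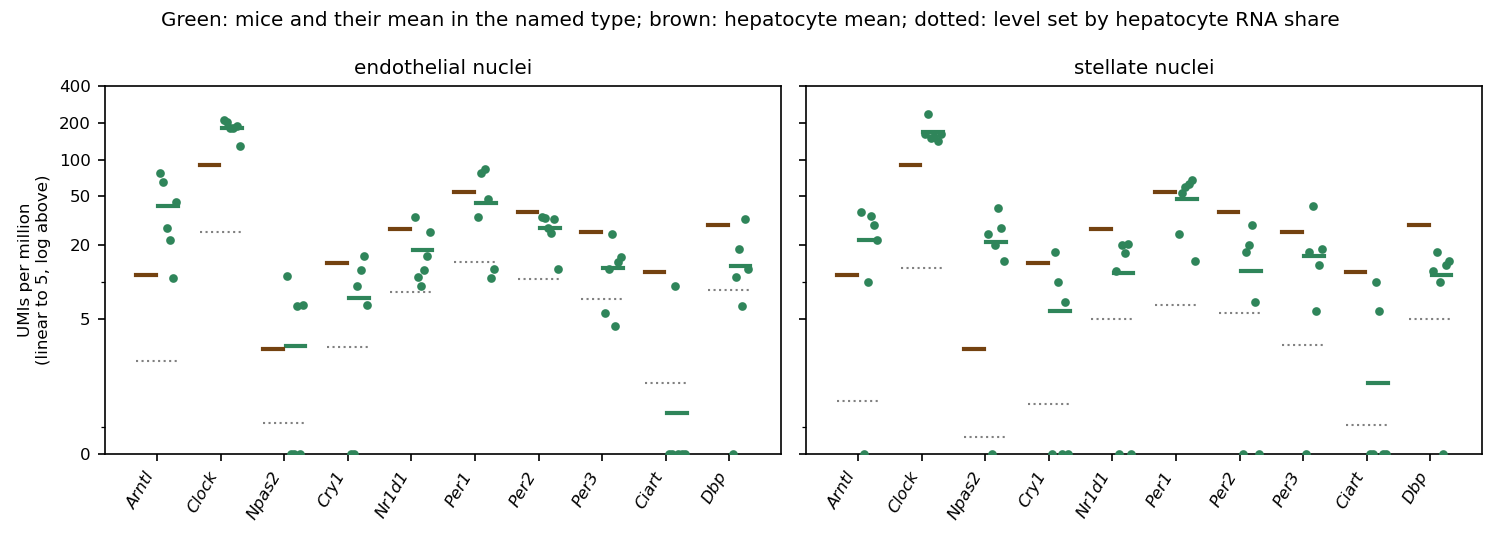
CPM of each clock gene in endothelial and stellate nuclei (green points are mice, green lines their mean; brown lines the hepatocyte mean of the same mice; dotted lines the level expected from the hepatocyte RNA share; axis linear to 5 and logarithmic above). Clock lies above hepatocytes in 6 of 6 mice in both types, and the median of Ciart over mice is 0 CPM in both.

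The genotype effect was tested in the other types as far as their depth allowed. In endothelial and in stellate nuclei only Clock passed the filter on low counts. Its log2 fold change was -0.24 ± 0.28 (SE, edgeR FDR = 0.996) in endothelial and -0.27 ± 0.33 (SE, edgeR FDR = 0.921) in stellate nuclei. Over all genes edgeR called 0 of 2743 (0%) and 0 of 2266 (0%), and DESeq2 called 1 in each type. The unadjusted p was under 0.05 for 3.79% and 7.06% of genes. The Clock values of the groups overlapped in both types, as those of all but 10.4% and 11.7% of genes did.

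A difference of the genotype effect between cell types was tested with mouse as a block, and 0 members passed. For hepatocytes minus endothelial cells, 0.0876% of 12554 genes were called, and for hepatocytes minus stellate cells 0.35% of 12580. At an unadjusted p under 0.05 there were 1 and 0 members, beside 5.15% and 6.5% of all genes, and DESeq2 called 0 members in either. The one was Arntl, with 1.98 ± 0.76 (SE, edgeR FDR = 0.712) for hepatocytes minus endothelial cells. The median over all genes was -0.16 there and -0.29 against stellate cells. Arntl was higher in HNKO than in WT hepatocytes and lower in HNKO than in WT endothelial nuclei in the mean, on 32 endothelial UMIs in all. Per1 gave 1.07 ± 0.61 (SE, edgeR FDR = 0.949) in the same comparison.

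To read the loop as a whole, UMIs of the Arntl side were expressed as percent of the UMIs of all 10 genes. The share is relative: it is low where Arntl-side RNA is low, where Dbp-side RNA is high, or both. Clock weighs most in it, with 2747 hepatocyte UMIs beside 413 for Cry1, 358 for Arntl and 123 for Npas2. In hepatocytes the share was 48.8%, 42.3% and 26.6% in WT mice 1 to 3 and 50.3%, 38.3% and 34.0% in HNKO mice 1 to 3, on 882 to 2030 clock UMIs. WT 3 was the lowest, and its exact binomial interval (24.4% to 29.0%) did not reach that of HNKO 3 (31.8% to 36.3%). In endothelial nuclei the share was 73.0%, 64.9% and 55.8% in WT and 70.3%, 66.7% and 70.7% in HNKO mice, on 37 to 101 clock UMIs. In stellate nuclei it was 81.8%, 70.0% and 54.3% in WT and 65.6%, 62.5% and 81.8% in HNKO mice, on 20 to 61 clock UMIs. WT 3 was the lowest in 3 of 3 types.

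The intervals outside hepatocytes were wide and overlapped: that of WT 3 was 39.9% to 70.9% in endothelial and 36.6% to 71.2% in stellate nuclei. WT 3 stayed the lowest in 3 of 3 types with the hepatocyte RNA share subtracted and with the mean log2 CPM difference of the sides, while other mice changed places. WT 3 was the lowest in 2 of 3 types without Clock, and in 1 of 3, the hepatocytes, when only nuclei with over 50% of their hashtag counts from their own mouse were used. The place of HNKO 3 depended on the measure. Counted from the lowest share, it ranked 2 in hepatocytes and 5 in endothelial nuclei, and in stellate nuclei it was level with WT 1 as the highest. By the mean log2 CPM difference, which gives each gene the same weight, HNKO 3 ranked 4, 5 and 5 in hepatocyte, endothelial and stellate nuclei. HNKO 2 ranked 3, 3 and 2 by share and 2, 2 and 3 by the difference, and WT 1 ranked 5, 6 and 6 by the difference.

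**Figure D4:**
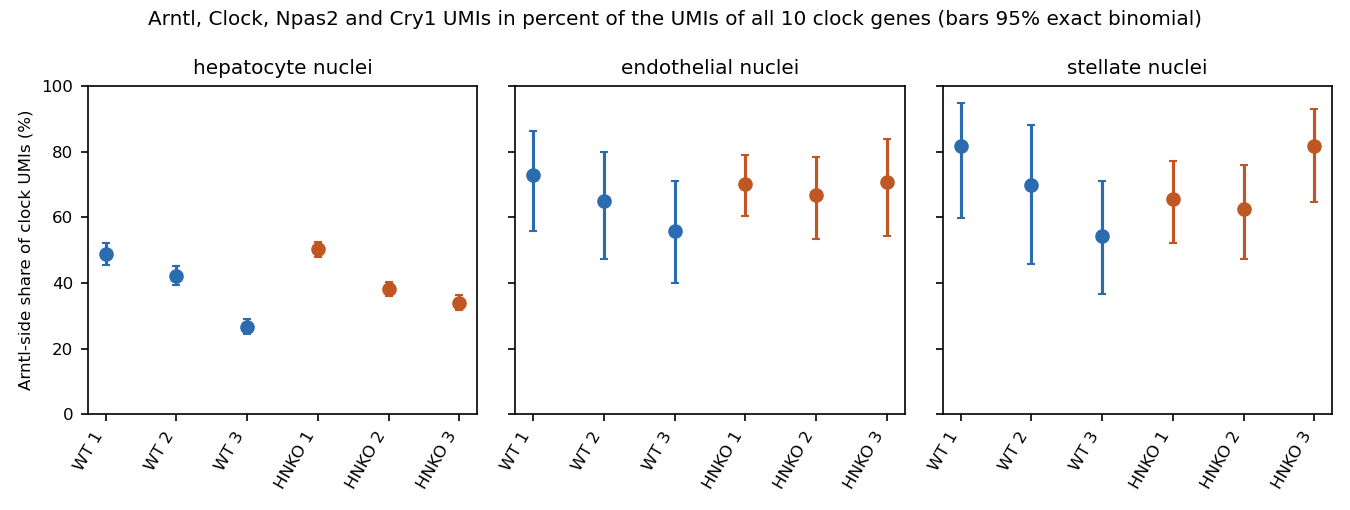
Arntl, Clock, Npas2 and Cry1 UMIs in percent of the UMIs of all 10 clock genes in hepatocyte, endothelial and stellate nuclei of each mouse (axis 0 to 100%; WT blue, HNKO orange; bars are 95% exact binomial intervals). WT 3 is the lowest in each type (26.6%, 55.8% and 54.3%), with intervals that overlap those of other mice outside hepatocytes.

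Single genes were then compared between types over the 6 mice, wherever a gene had at least 10 UMIs in both. Of 16 gene and type pairs 14 had r above 0, 2 had an unadjusted p under 0.05 and 0 passed adjustment (smallest adjusted p = 0.0667, exact permutation test, two-sided). The pairs share the same 6 mice and are not independent. The count of r above 0 over all genes is not given here, so the 14 cannot be read as a trait of clock genes. The closest pair was Per1 in hepatocytes and stellate cells. Stellate Per1 stood at 24.7, 52.9 and 59.9 CPM in WT mice 1 to 3 and at 63.6, 68.5 and 14.8 CPM in HNKO mice 1 to 3, on 2 to 11 UMIs per mouse. HNKO 3 and WT 1 were the lowest pair in both types, and HNKO 2 the highest. This gave r = 0.97 and rho = 0.94 (n = 6, exact permutation p = 0.00417 and 0.0167, adjusted p = 0.0667 and 0.267).

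Without the mice farthest from the hepatocyte median, WT 1 and HNKO 3, r for Per1 was 0.84, and centred within genotype it was 0.98. Leaving out each mouse gave 0.96 to 0.99, and subtracting the hepatocyte RNA share, taken from hepatocytes of the same mouse, gave 0.98. Among nuclei with a clear hashtag r was 0.64, on 17 stellate Per1 UMIs with none in WT 1, WT 2 and HNKO 3. Whether the call passes depends on the scaling: adjusted p is above 0.05 on library totals, the scale of all levels here, and under it with either set of TMM factors. Endothelial Per1 stood at 33.6, 77.0 and 83.1 CPM in WT and at 47.2, 10.8 and 12.8 CPM in HNKO mice. HNKO 2 was thus the highest in hepatocytes and the lowest in endothelial nuclei.

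For hepatocytes and endothelial cells, Per1 gave r = 0.44 (rho = 0.09, exact permutation p = 0.372 and 0.919, adjusted p = 0.616 and 1, r = -0.67 without WT 1 and HNKO 3). Clock gave r = 0.42 (rho = 0.14, exact permutation p = 0.381 and 0.803, adjusted p = 0.616 and 1), and -0.66 without WT 3 and HNKO 3, so that it rests on those mice. Arntl gave r = 0.00 (rho = -0.09, exact permutation p = 1 and 0.919, adjusted p = 1 and 1, r = -0.03 without WT 3 and HNKO 1), and 0.84 centred within genotype (permutation test, p = 0.0528). That last p is not exact, since centred values were permuted across genotypes. Clock in hepatocytes and stellate cells gave r = 0.13 (rho = -0.26, exact permutation p = 0.91 and 0.658, adjusted p = 0.97 and 1, r = -0.84 without WT 3 and HNKO 3). Over all pairs, the median r was 0.43 for hepatocytes and endothelial cells (7 genes), 0.57 for hepatocytes and stellate cells (5 genes) and 0.28 for endothelial and stellate cells (4 genes).

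Between endothelial and stellate cells, Clock gave r = 0.17 (rho = 0.09, exact permutation p = 0.578 and 0.919, adjusted p = 0.684 and 1) and Per1 r = 0.40 (rho = -0.03, exact permutation p = 0.424 and 1, adjusted p = 0.616 and 1). Without the mice farthest from the endothelial median r was 0.86 for Clock and 0.70 for Per1. The second pair under an unadjusted 0.05 was Per3 in these types, on 11 and 10 UMIs (exact permutation p = 0.0125, adjusted p = 0.1).

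**Figure D5:**
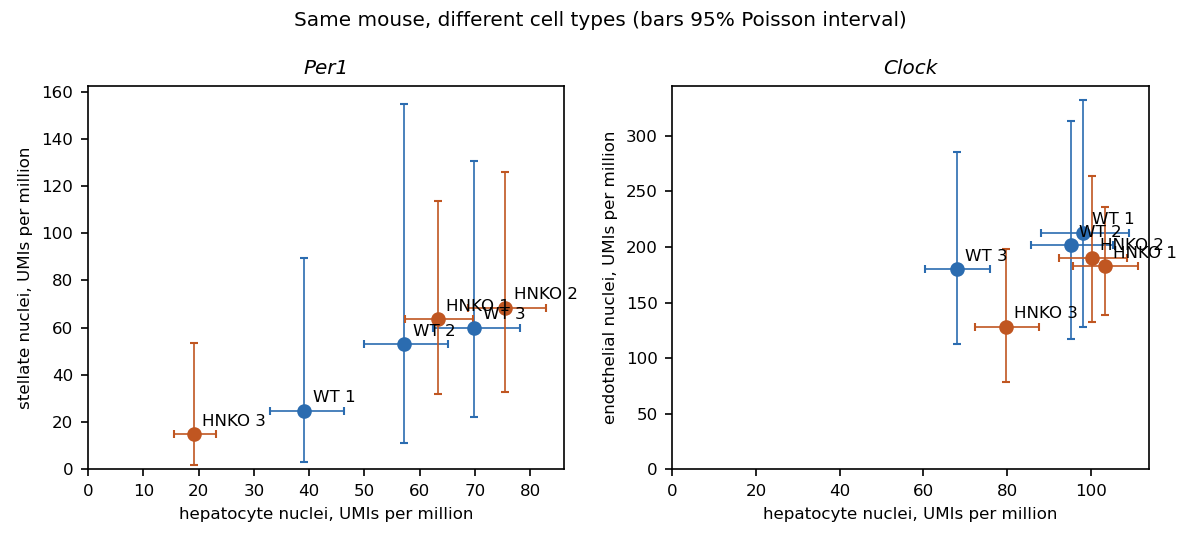
CPM in hepatocytes (horizontal) against stellate nuclei for Per1 and against endothelial nuclei for Clock, 1 point per mouse (linear axes; WT blue, HNKO orange; bars are 95% Poisson intervals). Per1 runs from HNKO 3 (19.1 and 14.8 CPM) to HNKO 2 (75.5 and 68.5 CPM). The stellate Per1 intervals and the endothelial Clock intervals overlap between all mice. The hepatocyte Clock interval of WT 3 (60.5 to 76.0 CPM) lies below those of WT 1, WT 2, HNKO 1 and HNKO 2.

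A mouse could also be matched to itself by its clock profile, the deviation of the 10 genes from the mean over mice. No minimum of UMIs was set here. Over all mice, stellate nuclei held 2 UMIs of Ciart, 3 of Cry1, 7 of Dbp, 9 of Per2 and 9 of Nr1d1. Endothelial nuclei held 1 of Ciart, 4 of Npas2 and 9 of Cry1. The matching was not run on nuclei with a clear hashtag alone. Hepatocyte and stellate profiles matched in 5 of 6 mice, hepatocyte and endothelial profiles in 3 of 6 (WT 1, WT 3 and HNKO 3), and endothelial and stellate profiles in 0 of 6. With the hepatocyte RNA share subtracted the counts were 4, 0 and 1, and with deviations from the mean of the own genotype 5, 3 and 3, so that the counts with endothelial cells depend on the setting. The mouse that failed between hepatocytes and stellate cells was HNKO 2. The same count over all genes tested in both types was 2 of 6, 6 of 6 and 3 of 6. Between hepatocyte and stellate profiles r of a mouse with itself ran from 0.39 in HNKO 3 to 0.76 in HNKO 1, and was -0.19 in HNKO 2.

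The wider clock network in hepatocytes was read from a list of 14 other clock genes, 13 of which could be tested. In edgeR 0 passed an FDR of 0.05 and 0 an unadjusted p of 0.05, and the median log2 fold change was 0.03. Csnk1e, a kinase that phosphorylates PER proteins, stood at 5.67, 5.82 and 4.50 CPM in WT and at 6.86, 8.35 and 9.92 CPM in HNKO mice, the only gene of the 13 without overlap, beside 12.4% of all genes (0.48 ± 0.23, SE, edgeR FDR = 0.82). The next smallest p values were those of Bhlhe40, a repressor at E-boxes (0.43, edgeR FDR = 0.82), Hlf, a paralog of Dbp (-0.32, edgeR FDR = 0.83), and Btrc, part of a ubiquitin ligase for PER proteins (0.24, edgeR FDR = 0.851).

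Of 10 clock output genes of liver 9 could be tested, with 0 passing an FDR of 0.05 and 1 an unadjusted p of 0.05 (edgeR), beside 5.91% of all genes, and the median was -0.60. The groups did not overlap for 2 of the 9, Gys2 and Upp2, beside 12.4% of all genes. Gys2, the liver glycogen synthase, stood at 1517, 1649 and 1463 CPM in WT and at 767, 1252 and 481 CPM in HNKO mice (-0.998 ± 0.41, SE, edgeR FDR = 0.82). Upp2, a uridine phosphorylase, stood at 5410, 4493 and 5896 CPM in WT and at 3456, 3886 and 808 CPM in HNKO mice (-1.02 ± 0.61, SE, edgeR FDR = 0.82). Both were lowest in HNKO 3, the mouse with the fewest hepatocyte marker UMIs, and neither passed. Usp2 (-0.77, edgeR FDR = 0.842) and Por (-0.60, edgeR FDR = 0.851) had the next smallest p values. Of 7 glucocorticoid targets 0 passed either threshold (median -0.39), and of 7 immediate early genes 0 passed the FDR and 1 the unadjusted p (median 0.21), again beside 5.91% of all genes. That gene, named here after its values were seen, was Junb, a subunit of the AP-1 factor. It stood at 11.9, 11.9 and 16.4 CPM in WT and at 18.5, 19.2 and 34.6 CPM in HNKO mice (0.63 ± 0.23, SE, edgeR FDR = 0.82), and was the only gene of these 7 without overlap.

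Genes most like the clock were sought by the correlation of their log2 CPM over the 6 hepatocyte sums with the mean of the Dbp side minus that of the Arntl side, among 7314 genes with at least 300 UMIs. That difference was lowest in HNKO 1 (-0.21) and WT 1 (0.24) and highest in WT 3 (1.84). The genes at either end are the extremes of many, and their values are a description. Among the 5 highest were Atg10 (r = 0.99), Gm32511 (0.98), Ankrd17 (0.97) and ENSMUSG00000052291 (0.97). The 5 lowest were Dnah7a (-0.98), Dusp3 (-0.98), Npr2 (-0.97), Arhgap24 (-0.96) and Apobec1 (-0.95), the editing enzyme of Apob RNA. With TMM factors r was 0.28 for Ankrd17, 0.59 for Atg10 and -0.63 for Npr2, while Gm32511 kept 0.96.

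Known partners of the members had like patterns on this scale, named here after their values were seen. Hlf and Tef, both paralogs of Dbp, gave r = 0.88 and 0.82, higher than 99.2% and 98.2% of the genes. Nfil3, a repressor that competes with them at D-boxes, gave r = -0.81, with 1.37% of genes lower. Nr1d2, the paralog of Nr1d1, gave 0.34. Nampt gave 0.45.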

How the data were processed

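Estimated counts of UMIs per gene and nucleus, introns included, were deposited by the authors, who ran Cell Ranger version 5.0.1 and alevin on GRCm38 with GENCODE M25 and filtered, demultiplexed and clustered nuclei in Seurat 4.0. Hashtag counts per nucleus were deposited by the authors as whole numbers. Of the nonzero estimated counts, 10.1% differed from whole numbers by more than 0.001. The mouse and the cluster of each nucleus came from the authors' table. No doublet caller was run here. The authors' normalized (SCTransform) score values were deposited too and not used here.

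Counts were summed per mouse and type (at least 10 nuclei), rounded, and tested with edgeR 4.0.16 in R 4.3.3 (filterByExpr, TMM, quasi-likelihood F test on genotype, two-sided, Benjamini-Hochberg over all genes). The interaction fits had mouse as a block. The hepatocyte RNA share of a type was the summed level of 10 hepatocyte markers relative to hepatocytes of the same mouse. For subtraction, the hepatocyte profile of that mouse was scaled by this share. Nuclei of all mice were pooled before library making, so that hepatocyte RNA from other mice is not covered by it. DESeq2 1.42.0 was an alternative. The code was tested on simulated data. Correlations used log2 CPM on library totals (prior count 2) with exact permutation tests in SciPy 1.17.1. The members, lists and tests were chosen with earlier results of these data known. TMM factors of all genes had been applied to the correlations first, and library totals were settled on after those results had been seen. The minimum of 30 UMIs in both types for naming an r was also set after seeing the counts. Named genes are all members, in the lists of other clock genes and clock output genes the 4 of smallest p and those without overlap (glucocorticoid and immediate early lists by count, apart from Junb), and the 5 genes with the highest and the 5 with the lowest r with the clock, of which 1 is not reported here. Each mouse is 1 replicate, so that p-values measure the spread between 3 mice and 3. Exact binomial and Poisson intervals of 95% cover counting error only.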

Additional observations from a re-analysis of the deposited data

How the results depend on the processing

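The count of members with a genotype effect was 0 in hepatocytes, endothelial and stellate cells and in both cell type differences under every alternative that was run (RLE size factors, no filter, DESeq2, clear hashtags, hepatocyte RNA subtracted, each mouse left out). Over all genes, where edgeR called 0 in hepatocytes, 35 were called with no filter, 21 by DESeq2 and 32 without HNKO 2. In endothelial cells the counts were 0, and 16 with no filter, 1 by DESeq2 and 5 with hepatocyte RNA subtracted, and in stellate cells 0, and 29 with no filter, 1 by DESeq2, 1 without WT 2 and 47 without HNKO 2. For the difference from endothelial cells 11 were called, and 2 by DESeq2, 1 with clear hashtags and 5 to 32 with a mouse left out. For the difference from stellate cells 44 were called, 0 by DESeq2 and with clear hashtags, and 0 to 175 with a mouse left out. The block is the mouse itself, so that sums of 1 animal are paired. Without the mouse as a block 0 members and 0 genes were called in either difference, and Arntl against stellate cells turned from 0.017 to -0.087, with no other member changing sign or call.

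For scaling, 3 choices were computed for the agreement between types, and the one reported was settled on after another had been seen. The pairs passing adjustment were 0 on library totals, 1 with TMM factors of the genes tested (Per1, hepatocytes and stellate cells) and 2 with TMM factors of all genes (the same, and Clock in hepatocytes and endothelial cells with r = 0.91). The other count was 2 with values centred within genotype and 1 with hepatocyte RNA subtracted. For centred values, permuted across genotypes, the permutation test is not exact, so that the 2 is no firm count. It was 0 with each mouse left out in turn, the smallest p that 5 mice allow being 0.00833. WT 3 was the lowest in 1 of 3 types with clear hashtags. Matches of endothelial and stellate profiles, 0 of 6, were 1 with rho, 1 with hepatocyte RNA subtracted, 3 with deviations from the own genotype, and 1 with either TMM scaling, and matches of hepatocyte and endothelial profiles fell from 3 to 0 with hepatocyte RNA subtracted. Members above the 90th percentile of spread numbered 3 to 6 with a mouse left out and 7 with TMM factors.

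The following values changed sign. Clock in hepatocytes was 0.013 with no filter. Against stellate cells, clear hashtags gave -0.45 for Clock and 0.074 for Npas2. The r of Arntl in hepatocytes and endothelial cells was -0.00054 with prior count 0.5, -0.022 with hepatocyte RNA subtracted, -0.35 with clear hashtags and -0.015 with TMM factors of the genes tested. The r of Clock was -0.16 in endothelial and stellate cells with values centred within genotype, and with clear hashtags -0.39 in hepatocytes and endothelial cells and -0.10 in hepatocytes and stellate cells. Leaving out each mouse gave these ranges of log2 fold change in hepatocytes: Ciart -2.08 to 0.46, Clock -0.19 to 0.21, Dbp -0.57 to 0.30, Nr1d1 -0.20 to 0.49, Per1 -0.49 to 0.30 and Per2 -0.12 to 0.40. For the difference from endothelial cells they were -0.69 to 0.34 for Nr1d1 and -1.52 to 0.12 for Per3, and for that from stellate cells -0.92 to 0.59 for Arntl, -0.69 to 0.16 for Npas2 and -0.95 to 0.89 for Per3. For r they were -0.28 to 0.23 for Arntl in hepatocytes and endothelial cells, -0.40 to 0.35 for Clock in endothelial and stellate cells, -0.17 to 0.28 for Clock in hepatocytes and stellate cells, -0.022 to 0.89 for Per1 in endothelial and stellate cells and -0.094 to 0.94 for Per1 in hepatocytes and endothelial cells. The causes were not tested.

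The analyses of each sequencing pool alone were not run, since the barcodes do not give the pool. Only members with at least 10 UMIs in both types entered the changes of sign of cell type differences, a limit set after the data had been seen, as were the TMM scalings of agreement, matching and spread. Depth limits single members other than Clock to at most 38 UMIs over all mice in endothelial and 34 in stellate cells, and where a mouse had 0 UMIs, the limit was 3.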
